A study of Mus musculus with 6 samples.

Results

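The transcripts described here encode potassium channels other than the ATP-sensitive (KATP) channel, in pancreatic islets of mice that lack urocortin 3. The 9 genes were chosen by name, namely Kcnb2, Kcnq1, Kcnh2, Kcnh6, Kcnk3, Kcnk16, Kcnma1, Kcnn3 and Kcnj3, out of 21813 gene symbols with values, and all 9 had values in every library. Where a symbol had several transcript rows, the row with the highest mean over the 6 libraries was used. Among the 9 genes only Kcnma1 had more than 1 row, with 22. Some other channel genes named below also had several rows, and their levels rest on the row used. RNA of 3 male Ucn3 null mice and of 3 male wild-type littermates, all 3 months old, was sequenced, with 1 library for each animal. Ucn3 encodes urocortin 3, a peptide related to corticotropin-releasing factor that adult beta cells secrete with insulin. The labels do not say how the null allele was made, what strain the mice were, or which null and wild-type animals shared a litter. The cell type is given as mixed, and the extraction text also mentions a cell sort.

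Potassium channels let potassium leave the cell and pull the membrane potential towards rest. In beta cells, closure of KATP channels by glucose metabolism starts electrical activity, and other potassium channels then shape it. Voltage-gated and calcium-activated channels open during action potentials and end them, tandem-pore channels carry background current, and G protein-gated inward rectifiers open when receptors coupled to inhibitory G proteins, such as somatostatin receptors, are active.

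All of these channels share a pore loop whose selectivity filter holds a glycine, an aromatic residue and a glycine. The coding sequence around these codons is shown for 7 of the 9 genes because it is the feature that these otherwise diverse channels have in common. Each line gives 39 bases of the coding strand, 5′ to 3′, from the GENCODE M21 transcript (GRCm38) that is matched to the RefSeq transcript measured here, with the 3 filter codons in capitals. The tandem-pore genes Kcnk3 and Kcnk16 each hold 2 pore loops; both are shown for Kcnk3 and the first for Kcnk16.
Kcnb2: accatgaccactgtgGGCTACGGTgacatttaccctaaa
Kcnh2: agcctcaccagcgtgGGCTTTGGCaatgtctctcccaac
Kcnh6: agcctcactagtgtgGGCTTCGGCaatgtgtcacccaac
Kcnk16, the first pore: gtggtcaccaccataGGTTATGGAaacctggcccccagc
Kcnk3, the first pore: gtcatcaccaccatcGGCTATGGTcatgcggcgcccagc
Kcnk3, the second pore: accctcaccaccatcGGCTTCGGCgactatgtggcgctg
Kcnma1: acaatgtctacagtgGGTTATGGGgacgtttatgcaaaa
Kcnj3: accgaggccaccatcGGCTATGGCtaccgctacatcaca
The middle codon encodes tyrosine in Kcnb2, Kcnma1, Kcnj3 and the first pores of Kcnk16 and Kcnk3. It encodes phenylalanine in Kcnh2, Kcnh6 and the second pore of Kcnk3. The windows of Kcnh2 and Kcnh6 were identical at 34 of 39 bases, and those of the first pores of Kcnk3 and Kcnk16 at 29 bases.

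The deposited values are RPKM, read counts scaled for transcript length and for library depth, and the spacing of low values gave an estimated depth of 42500000 to 51870000 reads a library. The targeted gene matched the labels in all 6 libraries, with Ucn3 at 1.61 to 1.80 RPKM in null islets and at 136 to 157 RPKM in wild-type islets. Of 8 beta cell markers and 5 alpha cell markers none was at 0, and their list means overlapped between the groups. The mean log2(RPKM + 1) of 10 acinar markers, genes of the exocrine tissue around islets, was 8.84, 8.15 and 6.88 in Ucn3 null replicates 1 to 3, against 7.18, 4.21 and 6.04 in wild type replicates 1 to 3. Delta cell and ductal marker lists, with 4 and 6 genes, were lower in every null library than in any wild-type library, with differences (null minus wild type) of -0.92 and -0.58 on the same scale. No library repeated the values of another.

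Levels of the 9 genes spanned a wide range. Kcnk16, which encodes the alkaline-activated tandem-pore channel TALK-1, was the most abundant of the 97 potassium channel and accessory genes with values, sulfonylurea receptors aside, at a mean of 100.3 RPKM over the 6 libraries. Kcnh6 followed at 29.0 RPKM, Kcnh2 at 14.1 RPKM, Kcnma1 at 10.9 RPKM, Kcnq1 at 5.74 RPKM, Kcnn3 at 4.68 RPKM, Kcnk3 at 2.47 RPKM, Kcnb2 at 1.40 RPKM and Kcnj3 at 0.847 RPKM. Kcnk16 thus lay above 98.9% of all gene symbols and Kcnb2 above 45.5%. For comparison, the KATP pore subunit Kcnj11 averaged 28.2 RPKM, next to Kcnh6, in the higher of its 2 transcript rows.

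**Figure D1:**
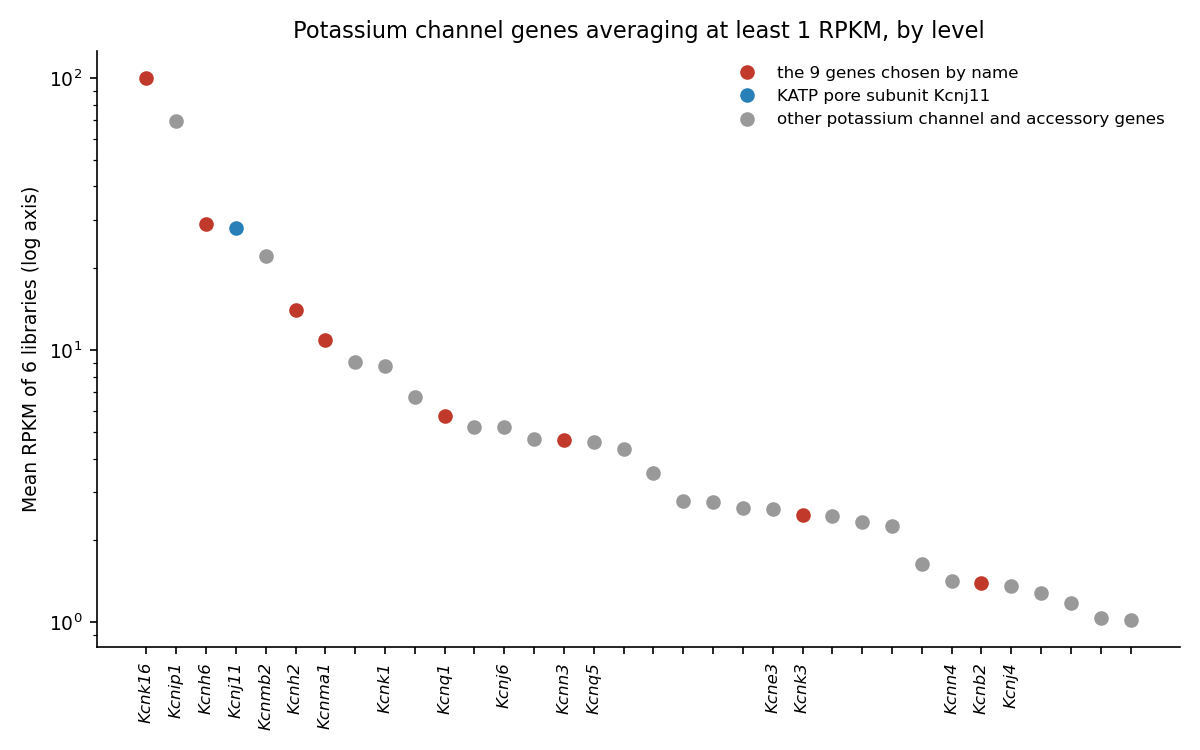
The mean RPKM of 6 libraries is plotted on a log axis for the 34 potassium channel and accessory genes, sulfonylurea receptors aside, that averaged at least 1 RPKM, from the highest on the left to the lowest on the right, with names for those the text describes. Kcnk16 stands first at 100.3 RPKM, Kcnh6 lies at 29.0 RPKM just above Kcnj11 at 28.2 RPKM, and Kcnj3 is not shown because it averaged 0.847 RPKM.

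The order of the first 5 genes was the same in all 6 libraries, and neighbours among them did not overlap over the libraries. The smallest gap among these was between Kcnh2, whose lowest library held 12.4 RPKM, and Kcnma1, whose highest held 11.8 RPKM. The lowest of the 22 Kcnma1 rows averaged 7.76 RPKM, while Kcnq1 reached 8.75 RPKM in Ucn3 null replicate 1. The lack of overlap between Kcnma1 and Kcnq1 thus rests on the row used. Kcnq1 and Kcnn3 could not be ordered, since Kcnq1 was the higher of the pair in 4 of 6 libraries. Kcnn3 exceeded Kcnk3, and Kcnb2 exceeded Kcnj3, within each of the 6 libraries, although their ranges over the libraries overlapped, while Kcnk3 and Kcnb2 did not overlap. Kcnk16 made up 56.8%, 59.2% and 56.8% of the summed RPKM of the 9 genes in Ucn3 null replicates 1 to 3, against 56.8%, 65.3% and 60.5% in wild type replicates 1 to 3.

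**Figure D2:**
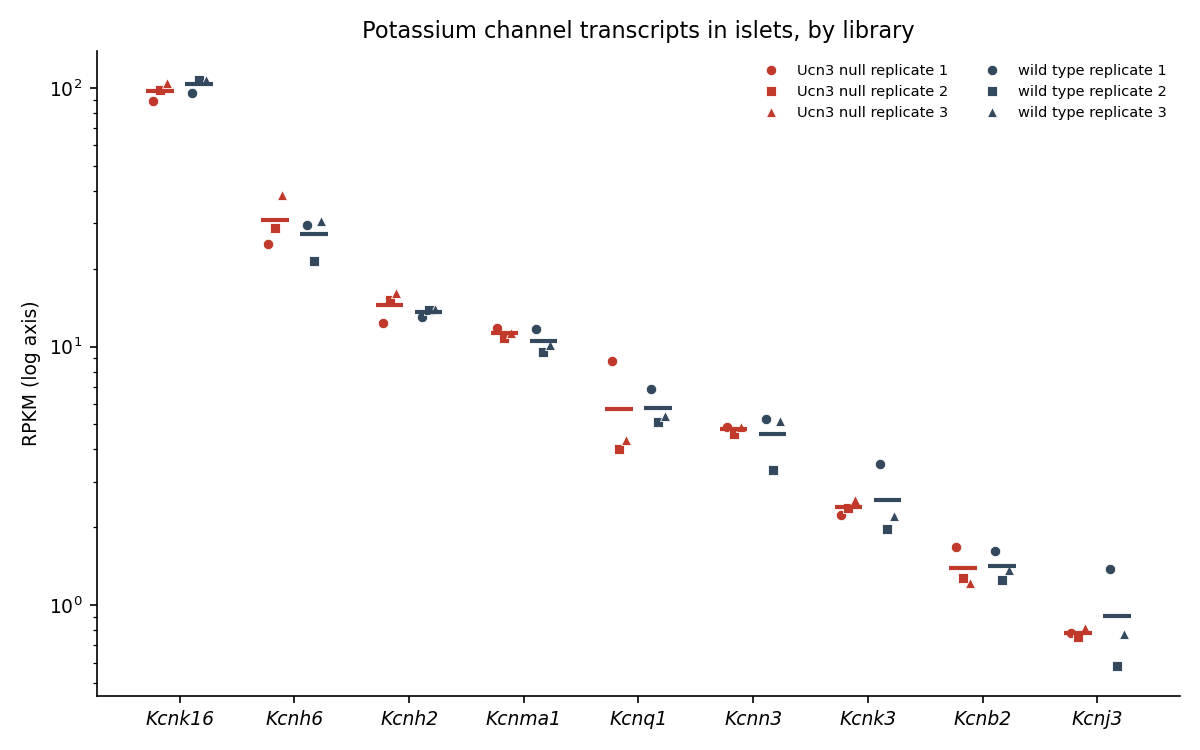
RPKM of each gene in each library is plotted on a log axis, with Ucn3 null libraries in red on the left of each pair, wild-type libraries in dark grey on the right, and a bar at each group mean (n = 3). The groups overlap for all 9 genes, and the scatter is widest for Kcnq1 in null islets (4.03 to 8.75 RPKM) and for Kcnj3 in wild-type islets (0.580 to 1.38 RPKM).

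No member passed the test between the genotypes. Of the 8 genes that averaged at least 1 RPKM and were tested, 0 passed limma's threshold of 0.05 for the adjusted p, against 0.0158% of all 12652 genes tested, which is 2 genes. None of the 8 reached an unadjusted p under 0.05, where 9.36% of all tested genes did, and in none were the groups without overlap, where 15.2% of all tested genes were. Kcnj3 averaged under 1 RPKM, so its difference is taken from the fit without the filter on low values, in which 4 of 21813 genes or 0.0183% passed and Kcnj3 did not. Its groups overlapped as well, while 9.68% of the genes under 1 RPKM were without overlap. Among the 8 tested genes 4 had positive and 4 negative differences (null minus wild type), with a median of 0.03 on the log2(RPKM + 1) scale, beside a median of -0.03 over all tested genes. In whole islets, a change in the share of cells that use a channel and a change in its RNA per cell cannot be told apart.

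The tandem-pore gene Kcnk16 varied least over the 6 libraries, with a highest to lowest ratio of 1.21. It held 88.6, 98.4 and 104.8 RPKM in Ucn3 null replicates 1 to 3, against 95.9, 107.2 and 107.0 RPKM in wild type replicates 1 to 3. Null replicate 1 was the lowest of all, and the other two null libraries lay inside the wild-type range. The means were 97.2 ± 8.14 RPKM in null and 103.4 ± 6.44 RPKM in wild-type islets (SD, n = 3 each), with a log2 difference of -0.09 (SE 0.09, limma adjusted p = 0.81). Its 95% interval ran from -0.31 to 0.13, which is 0.808-fold to 1.09-fold on the scale of RPKM + 1. Kcnk3, which encodes the acid-sensitive background channel TASK-1, held 2.24, 2.38 and 2.56 RPKM in null replicates 1 to 3, against 3.50, 1.97 and 2.20 RPKM in wild type replicates 1 to 3. The 3 null libraries lay close together and inside the wild-type range, which was set by wild type replicate 1 at the top. The log2 difference was -0.05 (SE 0.15, 95% interval -0.40 to 0.31, limma adjusted p = 0.95). Without wild type replicate 1 it was 0.14 (SE 0.09, limma adjusted p = 0.55).

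Kcnh2 and Kcnh6 encode channels of the ether-à-go-go-related (ERG) type, which contribute to the return of the membrane to rest after electrical activity. Kcnh6 held 25.0, 28.7 and 38.6 RPKM in Ucn3 null replicates 1 to 3, against 29.6, 21.4 and 30.7 RPKM in wild type replicates 1 to 3. The highest library was null replicate 3 and the lowest wild type replicate 2, and the other libraries of both groups lay between 25.0 and 30.7 RPKM. The means were 30.8 ± 7.05 RPKM in null and 27.2 ± 5.06 RPKM in wild-type islets (SD, n = 3 each), with the largest difference in size among the 9 genes, 0.16 on the log2 scale (SE 0.18, 95% interval -0.27 to 0.60, limma adjusted p = 0.83). That difference was -0.01 (SE 0.16, limma adjusted p = 0.995) without null replicate 3. Kcnh2 held 12.4, 15.2 and 16.1 RPKM in null replicates 1 to 3, against 13.0, 13.8 and 14.0 RPKM in wild type replicates 1 to 3. Null values fell on both sides of a narrow wild-type range, and the log2 difference was 0.08 (SE 0.10, 95% interval -0.15 to 0.31, limma adjusted p = 0.84). Kcnh6 exceeded Kcnh2 in every library, with a ratio of 2.02, 1.89 and 2.41 in null replicates 1 to 3, against 2.28, 1.55 and 2.19 in wild type replicates 1 to 3.

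Kcnq1 and Kcnb2 encode other voltage-gated channels. Kcnq1, whose protein forms channels together with KCNE subunits, held 8.75, 4.03 and 4.35 RPKM in Ucn3 null replicates 1 to 3, against 6.82, 5.12 and 5.40 RPKM in wild type replicates 1 to 3. The 3 null libraries held both the highest value and the lowest values of all, with the wild-type libraries between them. The means were 5.71 ± 2.64 RPKM in null and 5.78 ± 0.913 RPKM in wild-type islets (SD, n = 3 each), and the log2 difference was -0.07 (SE 0.24, 95% interval -0.64 to 0.49, limma adjusted p = 0.95). Its interval was the widest of the 9 genes, so changes to 0.640-fold or 1.41-fold on the scale of RPKM + 1 lie within it. The coefficient of variation of Kcnq1 was 46.3% in null islets, where the median over all tested genes was 8.16% and the 90th percentile 19.0%. Without null replicate 1 the log2 difference was -0.38, while it was 0.10 without null replicate 2, 0.05 without null replicate 3 and 0.03 without wild type replicate 1, so that its sign rested on single libraries. In GENCODE M21, 1 of the 16 exons of Kcnq1 overlaps the span of the antisense transcript Kcnq1ot1. Kcnq1ot1 held 0.245, 0.105 and 0.126 RPKM in null replicates 1 to 3, against 0.162, 0.0950 and 0.136 RPKM in wild type replicates 1 to 3, and was also highest in null replicate 1. The strand setting of the counting was not given in the sources used here, so reads of Kcnq1 and Kcnq1ot1 may not be fully separated, and the part of this in the Kcnq1 values was not tested.

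Kcnb2, which encodes a delayed rectifier of the Kv2 family, held 1.68, 1.28 and 1.21 RPKM in Ucn3 null replicates 1 to 3, against 1.61, 1.25 and 1.37 RPKM in wild type replicates 1 to 3. Both groups covered nearly the same range, and the log2 difference of -0.02 (SE 0.11, 95% interval -0.27 to 0.24, limma adjusted p = 0.98) was the smallest in size of the 9.

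**Figure D3:**
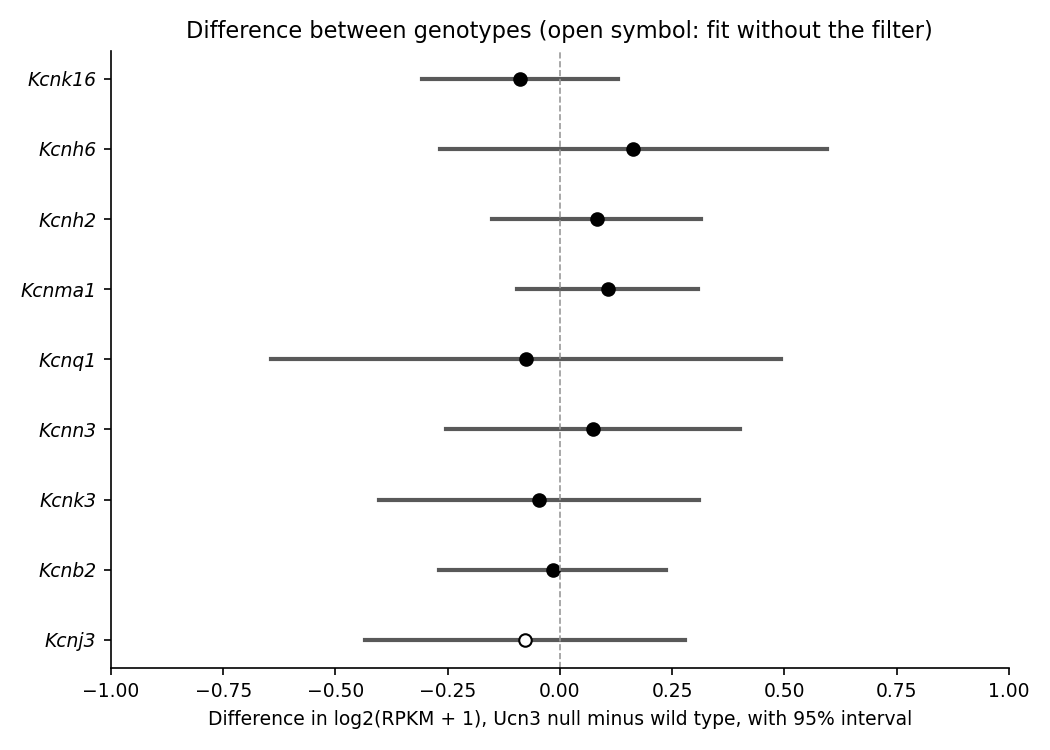
The difference in log2(RPKM + 1), Ucn3 null minus wild type, is plotted with its 95% interval for each gene (n = 3 libraries a group), with genes ordered by level and an open symbol for Kcnj3, taken from the fit without the filter. All 9 intervals include 0, and the widest belongs to Kcnq1 (-0.64 to 0.49).

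The calcium-activated channels also overlapped between the groups. Kcnma1, which encodes the pore of the large-conductance BK channel, held 11.8, 10.8 and 11.3 RPKM in Ucn3 null replicates 1 to 3, against 11.7, 9.48 and 10.2 RPKM in wild type replicates 1 to 3. The null libraries lay in the upper part of the joint range, but wild type replicate 1 exceeded 2 of them. The log2 difference was 0.11 (SE 0.09, 95% interval -0.10 to 0.31), with the smallest limma adjusted p of the members, 0.74. The 22 transcript rows of Kcnma1 averaged 7.76 to 10.9 RPKM and gave null to wild type ratios of 1.07 to 1.08, so the choice of transcript moved the level more than the comparison. Kcnn3, which encodes the small-conductance channel SK3, gated by calcium through calmodulin, held 4.89, 4.60 and 4.86 RPKM in null replicates 1 to 3, against 5.26, 3.32 and 5.14 RPKM in wild type replicates 1 to 3. The null libraries clustered between wild type replicate 2 below and the other two wild-type libraries above. Its log2 difference was 0.07 (SE 0.14, 95% interval -0.25 to 0.40, limma adjusted p = 0.91), and without wild type replicate 2 it was -0.10 (SE 0.07, limma adjusted p = 0.94).

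Kcnj3 encodes GIRK1, a subunit of the G protein-gated inward rectifier. Its values were 0.778, 0.754 and 0.817 RPKM in Ucn3 null replicates 1 to 3, about 211, 189 and 198 reads, against 1.38, 0.580 and 0.772 RPKM in wild type replicates 1 to 3, about 306, 145 and 195 reads. The null libraries were nearly equal, and the wild-type libraries held both the highest and the lowest value. The log2 difference in the fit without the filter was -0.08 (SE 0.15, 95% interval -0.44 to 0.28, limma adjusted p = 0.92), and without wild type replicate 1 it was 0.09 (SE 0.07, limma adjusted p = 0.68). The GIRK partner subunit Kcnj6 was more abundant, at 5.40 ± 0.469 RPKM in null and 5.02 ± 0.581 RPKM in wild-type islets (SD, n = 3 each), while Kcnj5 and Kcnj9 averaged 0.00989 and 0.0571 RPKM over the 6 libraries.

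Within groups, single libraries stood out for several members. The coefficient of variation in null and wild-type islets was 4.09% and 45.9% for Kcnj3, 6.63% and 32.3% for Kcnk3, and 3.34% and 23.8% for Kcnn3, where the medians over all tested genes were 8.16% in null and 8.57% in wild-type islets. Wild type replicate 1 was the highest of the 6 libraries for these 3 genes and wild type replicate 2 the lowest. Wild type replicate 2 was the lowest library for 5 of the 9 members, namely Kcnh6, Kcnk3, Kcnma1, Kcnn3 and Kcnj3, while it was the lowest for 26.3% of all tested genes. It was the highest library for Kcnk16. The same library had the lowest acinar marker mean, 4.21. Wild type replicate 1 had the highest macrophage marker mean, 2.67 against 1.79 to 2.32 in the other libraries, where wild type replicate 2 held the 2.32. Stellate and endothelial marker means were highest in wild type replicate 1, at 1.43 and 3.16. Both were lowest in wild type replicate 2, at 0.89 and 2.89. The part of the macrophage, stellate and endothelial markers in the channel values was not tested. With the acinar mean as a covariate in the fit, 0 members passed. The log2 differences of Kcnk16, Kcnma1 and Kcnn3 changed sign, to 0.06, -0.04 and -0.21, and that of Kcnn3 lay further from 0 than its 0.07 without the covariate. Those of Kcnq1, Kcnj3, Kcnk3 and Kcnb2 were then -0.49, -0.35, -0.28 and -0.20, further from 0 than without the covariate. Their SEs were 0.30, 0.17, 0.20 and 0.13, with limma adjusted p of 0.98, 0.91, 0.98 and 0.98. The differences of Kcnh2 and Kcnh6 were 0.23 and 0.13, against 0.08 and 0.16 without the covariate, so that of Kcnh2 also moved further from 0. The acinar mean averaged 7.96 in null and 5.81 in wild-type islets, so this fit cannot fully separate it from genotype.

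**Figure D4:**
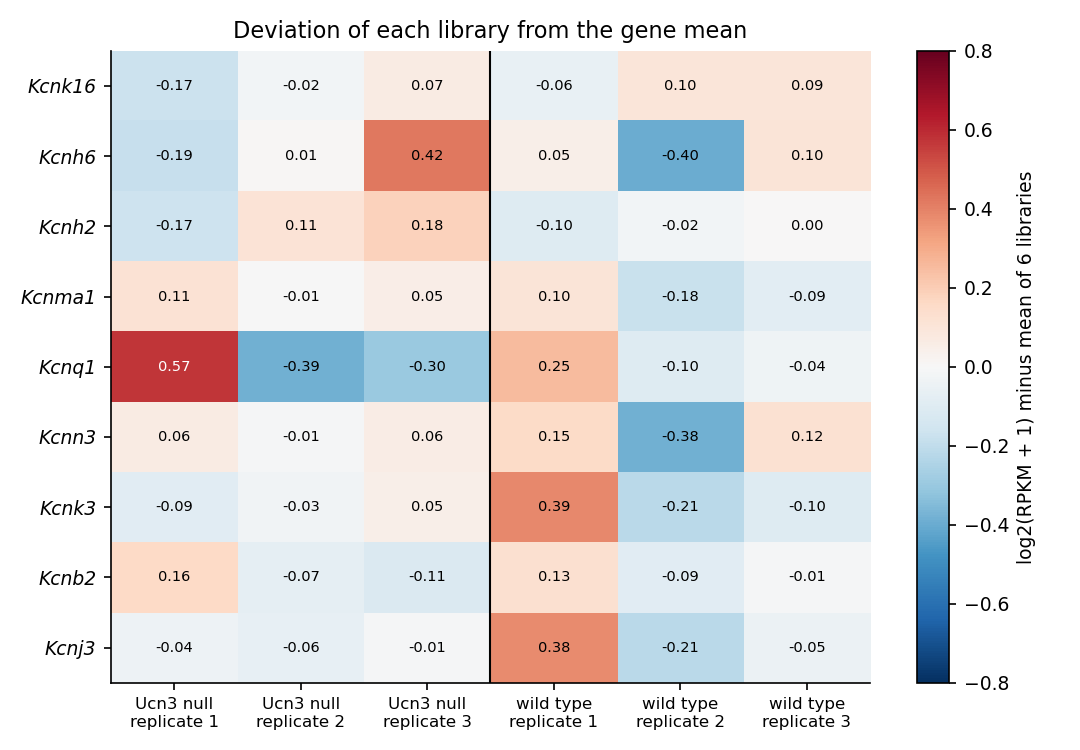
Each cell gives the log2(RPKM + 1) of a gene in a library minus the mean of the 6 libraries, with red for higher and blue for lower values, Ucn3 null libraries on the left and wild-type libraries on the right of the black line. The largest deviations are Kcnq1 in Ucn3 null replicate 1 (0.57) and Kcnh6 in Ucn3 null replicate 3 (0.42), and no row splits by genotype.

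Other potassium channel genes were read from the same comparison. Of 87 such channel and accessory genes with values, KATP subunits aside, 25 were tested and 0 passed in either direction, against 0.0158% of all tested genes. The 25 had 12 positive and 13 negative differences, with a median of -0.03. Among 8 other voltage-gated pore genes, Kcnq5 had the smallest p, at 4.39 ± 0.516 and 4.84 ± 0.0430 RPKM in null and wild-type islets (SD, n = 3 each; limma adjusted p = 0.69). Among 3 other tandem-pore genes, Kcnk1 was both the most abundant and the one with the smallest p, at 8.09 ± 0.207 RPKM in null and 9.42 ± 0.853 RPKM in wild-type islets (SD, n = 3 each; log2 difference -0.19, SE 0.08, limma adjusted p = 0.51). It was the only one of the 25 whose groups did not overlap, while 15.2% of all tested genes were without overlap.

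Accessory subunits, which bind the pore proteins and alter their gating, were read from the same fit. Kcne3, a KCNE partner of Kcnq1, held 2.34, 1.15 and 1.13 RPKM in Ucn3 null replicates 1 to 3, against 4.77, 4.12 and 2.17 RPKM in wild type replicates 1 to 3. The row used, out of 5 for Kcne3, stood for few reads. These were about 53, 24 and 23 in the null libraries and 89, 87 and 46 in the wild-type libraries. Null replicate 1 lay above wild type replicate 3, so the groups overlapped, and the log2 difference of -0.87 (SE 0.26, limma adjusted p = 0.49) did not pass. Of 6 ductal markers none was at 0. Their mean log2(RPKM + 1) in the same libraries was 3.74, 3.29 and 3.14 in null replicates 1 to 3, against 4.05, 4.10 and 3.76 in wild type replicates 1 to 3. The part of the ductal markers in the Kcne3 values was not tested. Kcne1 and Kcne2 averaged 0.00326 and 0.0250 RPKM. Kcnmb2, an accessory subunit that inactivates BK channels, was the most abundant of the other calcium- or sodium-activated channel genes, at 21.2 ± 2.73 RPKM in null and 23.3 ± 1.60 RPKM in wild-type islets, and exceeded its pore gene Kcnma1. Kcnn4, a calcium-activated channel of intermediate conductance, had the smallest p of that list, at 1.11 ± 0.353 and 1.71 ± 0.286 RPKM in null and wild-type islets (SD, n = 3 each; limma adjusted p = 0.50). Kcnip1, a calcium-binding accessory subunit of Kv4 channels, was second in level among the same 97 genes, with 80.2, 70.6 and 65.2 RPKM in null replicates 1 to 3, against 71.4, 67.7 and 63.4 RPKM in wild type replicates 1 to 3. Among 3 other inward rectifiers Kcnj6 was the most abundant and Kcnj4 had the smallest p, at 1.19 ± 0.179 and 1.51 ± 0.243 RPKM in null and wild-type islets (SD, n = 3 each, limma adjusted p = 0.61).

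The KATP channel was read from the same fit. Kcnj11, its pore, held 26.3, 33.0 and 24.3 RPKM in Ucn3 null replicates 1 to 3, against 25.8, 32.3 and 27.7 RPKM in wild type replicates 1 to 3, with overlapping groups. Abcc8, its sulfonylurea receptor, held 153, 178 and 163 RPKM in null replicates 1 to 3, against 146, 133 and 150 RPKM in wild type replicates 1 to 3. The groups of Abcc8 did not overlap, as for 15.2% of all tested genes, and its log2 difference of 0.20 (SE 0.09, limma adjusted p = 0.55) did not pass.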

How the data were processed

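Libraries of islet RNA were made with the TruSeq RNA kit v2, per the labels' protocols. The authors deposited RPKM values, 1 row per RefSeq transcript, per the file headers; the submitters' processing notes name STAR, bedtools, DESeq and the build mm9, without roles. Of 28129 rows, 118 without 6 numeric values were left out. A mean of 1 RPKM or more was required for testing, which kept 12652 genes. The test was limma 3.58.1 (R 4.3.3) on log2(RPKM + 1), with genotype as the only term, eBayes with a mean trend and Benjamini-Hochberg adjustment over all tested genes (threshold 0.05). The fit code was also run on data simulated from its own model, which cannot show whether that model suits these libraries. Differences on this scale understate changes of low genes.

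Depth was estimated from the steps of low RPKM values with GENCODE M21 lengths, found for 97.5% of rows; the share of low values within 0.1 of a whole read was 77.5% to 79.0%, so reads are estimates. The p-values measure the spread between single animals. Members and lists were chosen with earlier results of these data known. Named genes are the members, the KATP subunits, Ucn3 and, in each list of other channel genes, the most abundant and that with the smallest p. Kcnj5, Kcnj9, Kcne1, Kcne2 and Kcnq1ot1 were named after their values were seen. Some genes and sequences that these rules select are not reported here. Plots used matplotlib 3.10.9 (Python 3.11.15).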

Additional observations from a re-analysis of the deposited data

How the results depend on the processing

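No paired analysis was possible because no label ties a null animal to a wild-type animal and the replicate numbers only name the libraries. In every alternative run, 0 of the 9 members passed, with no adjusted p below 0.386. Without 1 library in turn, between 1 and 5 genes of all tested passed (5 without Ucn3 null replicate 1, 1 without Ucn3 null replicate 2). With all libraries, 2 passed, against 4 without the filter on low values and 1 with the acinar mean as covariate. Kcnh2 kept its sign in all 14 alternatives, but its difference ran from 0.010 without Ucn3 null replicate 3 to 0.23 with the acinar covariate. The difference of Kcnb2, -0.02, was 0.014 with median-ratio factors, 0.0053 with equal sums of RPKM, 0.022 with equal sums without the acinar list, and -0.10 to 0.044 with 1 library left out. With the acinar covariate Kcnk16 was 0.060, Kcnma1 -0.043, Kcnn3 -0.21, Kcnq1 -0.49, Kcnj3 -0.35, Kcnk3 -0.28, Kcnb2 -0.20, Kcnh2 0.23 and Kcnh6 0.13. With 1 library left out, differences ran from -0.38 to 0.099 for Kcnq1, from -0.0068 to 0.30 for Kcnh6, from -0.16 to 0.14 for Kcnk3, from -0.10 to 0.17 for Kcnn3 and from -0.20 to 0.092 for Kcnj3. The cause of these changes was not tested. With 3 animals a group, the intervals of the members still hold changes of 1.09-fold to 1.51-fold upwards on the RPKM + 1 scale. Downwards, their limits ran from 0.936-fold for Kcnma1 to 0.640-fold for Kcnq1.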

Other observations

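Of the 97 potassium channel and accessory genes with values, 63 averaged under 1 RPKM and were not tested. The groups did not overlap for 8 of these 63, with 3 higher and 5 lower in Ucn3 null islets, beside 9.68% of all genes under 1 RPKM.

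For 8 of the 9 members, the gene averaging at least 5 RPKM whose log2(RPKM + 1) followed it most closely over the 6 libraries is given as a description. These were Nol4 for Kcnq1 (Pearson r 0.969), Trp53i13 for Kcnh2 (0.992), Zfp445 for Kcnh6 (0.994), Rps6ka3 for Kcnk3 (0.987), D10Jhu81e for Kcnk16 (0.996), Pdpk1 for Kcnma1 (0.993), Gm6592 for Kcnn3 (0.992) and Caprin1 for Kcnj3 (0.995). Each r is the highest of at least 7392 over only 6 libraries, and between 5 genes (for Kcnq1) and 155 genes (for Kcnk16) exceeded 0.95, so such values are easily reached.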
